A study of Brassica napus with 24 samples.

Results

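In oilseed rape (Brassica napus cv. Trezzor), 200 of 101040 annotated genes had more leaf mRNA under water deficit (WD) than in well-watered controls at 20 d, when the soil was kept at 25% of field capacity (FC), and nearly equal levels in both groups at 18 d, when it was kept at 50% FC. These values chose them. Counts were expressed as counts per gene scaled to the gene counts of a library (CPM), and E was the log2 ratio of the mean WD CPM to the mean control CPM, each with 0.5 CPM added. Of the 51079 genes that reached a mean of 1 CPM in some group (called expressed below), 23619 had an E at 18 d between -0.3 and 0.3. In 2005 of these each WD library lay above each control library at 20 d, and the 200 with the highest E at 20 d are the members described here. Leaf blades that grew during the water shortage were sampled from greenhouse plants that, from 30 d after sowing, received no water until the stated soil water was reached (WD) or stayed at 80% FC (control). WD and control plants were harvested at 5 d (labelled below 50% FC), at 11 d (25% FC reached), at 18 d after a stay at 50% FC, and at 20 d after a stay at 25% FC, with 3 libraries for each of the 8 groups and 24 in all. Each library came from 2 pooled plants. The labels give both early harvests the same date, so their days are those of the study's methods, which state a lower soil water for the first and do not describe the third harvest. The 2 late harvests differed in soil water, in days and in sampling, and these cannot be told apart.

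Drying soil raises abscisic acid in leaves. This hormone is bound by receptors that block type 2C protein phosphatases (PP2C), which frees SnRK2 kinases to close stomata and to activate transcription factors of genes for protection against drying. Genes for such PP2C are themselves switched on by the hormone, so that the pathway dampens itself. Heat stress factors, homeodomain-leucine zipper proteins, osmolyte synthesis and membrane proteins are other parts of the known response of leaves to dehydration.

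Gene counts per library lay between 13263953 and 31112368, and between 80.8% and 84.2% of the counted pairs fell on genes. Some libraries stood apart. Each library was placed on the line that joins the mean 5 d control (0) and the mean 20 d control (1) over the 51079 genes. Control replicate 3 of 11 d stood at 0.97, next to the 20 d controls, and the other 11 d controls at 0.21 and 0.64, a wide spread. WD replicate 3 of 18 d stood at 0.22, against 0.67 and 0.70 in the other WD libraries of 18 d. The counts at 11 d and the number of members flat at 18 d are also given without these replicates 3, as is E at 18 d for some single members. WD libraries stood at 0.19 to 0.34 at 11 d. At 20 d they stood at 0.55 to 0.69, below the controls at 0.92 to 1.07. The part of these positions in the differences between WD and control leaves was not tested. Markers were read from the study's list of genes called differential in these same libraries, so their differences are not independent of that list. Of leaf markers, 3 annotated chlorophyll a-b binding protein genes together gave 60.1 to 76.3 CPM in WD and 105 to 135 CPM in control libraries at 20 d. The sums were 20.4 to 36.3 CPM in WD and 94.0 to 148 CPM in control libraries at 18 d, where the members were flat, 26.9 to 30.7 CPM in WD and 57.6 to 63.6 CPM in control libraries at 11 d, and 54.7 to 71.1 CPM in WD and 70.9 to 79.7 CPM in control libraries at 5 d. Of 5 annotated photosynthesis genes, 3 rose and 1 fell at 20 d in the fit across all genes (median log2 fold change 0.86). At 11 d 1 rose and 2 fell (0.30). For lignifying cells, 2 annotated laccase genes gave 1.34 to 1.47 CPM in WD and 2.58 to 5.25 CPM in control libraries at 20 d. At 11 d they gave 3.31 to 5.48 CPM in WD and 9.07 to 10.03 CPM in control libraries. The groups did not overlap at these harvests, but did at 5 d and 18 d. Each WD library lay below each control in 40.7% of the expressed genes at 20 d and in 8.78% at 11 d. The 5 genes found by the term pollen allergen, which are expansins, overlapped at 20 d, with 35.7 to 65.6 CPM in WD and 28.2 to 47.5 CPM in control libraries. None of these genes was a member, and the annotation read here names no oleosin, cruciferin, napin or other defining seed gene. The part of these differences in the results was not tested. In bulk leaf RNA a change in the share of a cell type and a change in RNA per cell cannot be told apart.

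At 20 d E had a median of 1.997 over the members, with a highest value of 5.49 for BnaA04g22810D and a lowest of 1.597 for BnaA04g10620D. The choice by rank had no natural edge, since E at 20 d was 1.596 for BnaC04g29260D, the first gene left out. At the other bounds, E at 18 d was -0.288 for the member BnaA06g01990D and 0.295 for the member BnaC04g32900D, against -0.306 for BnaC06g40700D and 0.304 for BnaC01g43710D, which were not members. A further 503 genes were raised at least as much at 20 d but had an E above 0.3 at 18 d, and 58 had an E below -0.3. In the fit across all genes 196 members passed the test at 20 d, where 8.77% of all genes tested rose and 10.1% fell, and each WD library lay above each control library in 200 members, against 9.05% of the expressed genes. The rule used this contrast, so nothing is read from either count.

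**Figure D1:**
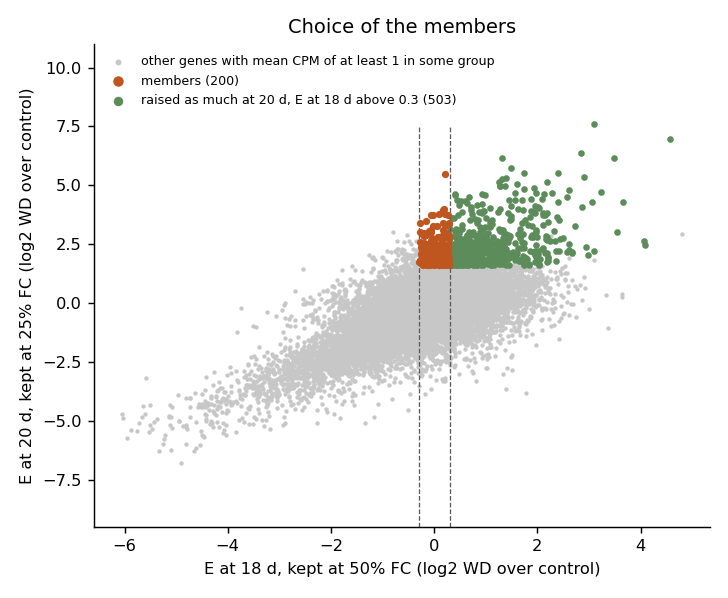
E (log2 of WD over control mean CPM, 0.5 CPM added) at 18 d with soil kept at 50% FC (x axis) and at 20 d with soil kept at 25% FC (y axis) for genes with a mean of at least 1 CPM in some group. The 200 members lie between the dashed bounds of -0.3 and 0.3 and at or above an E of 1.597 at 20 d; the 503 genes raised as much at 20 d with a higher E at 18 d lie to their right.

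The difference at 20 d was made mostly on the WD side. In WD leaves the 20 d level exceeded the 18 d level in 200 members, with a median log2 ratio of 1.63, and at least 2-fold in 175. All 3 WD libraries of 20 d lay above all 3 WD libraries of 18 d in 180 members. Of the 51079 expressed genes, 21730 were higher in WD leaves at 20 d than at 18 d, 1630 of them at least 2-fold. All 3 WD libraries of 20 d lay above those of 18 d in 5375 expressed genes. In controls the 20 d level was below the 18 d level in 168 members (84.0%, against 43.6% of the expressed genes), with a median log2 ratio of -0.33, and at least 2-fold lower in 25. In 18 members the control difference was larger than the WD difference. Among the 51079 expressed genes controls were at least 2-fold lower at 20 d in 386, and the control difference was the larger in 17460. Both groups of 18 d and both of 20 d were used to choose the members, so these values are a description.

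As a group the members stood level in WD and control leaves at 18 d and apart at 20 d. Their geometric mean was 6.12, 5.88 and 6.34 CPM in the WD libraries of 18 d and 6.05, 6.02 and 6.33 CPM in the controls. At 20 d it was 20.5, 21.3 and 25.1 CPM in WD libraries and 4.43, 4.70 and 4.32 CPM in controls. At 18 d WD lay above control in all libraries in 3 members (1.5%, against 5.32% of the expressed genes) and below in 3 (26.3%). The rule used the 18 d and 20 d values, so these levels and counts follow from the choice and nothing is read from them. The flat value at 18 d depended on WD replicate 3, since without it only 121 of the 200 members kept an E within the bounds, 32 lay above and 47 below, and 117 of the members were chosen again by the rule. Among members described below, E at 18 d then went from 0.06 to 0.35 in BnaC05g41830D and from 0.13 to 0.41 in BnaC07g25850D. It went from 0.10 to 0.50 in BnaA01g03580D and from -0.07 to -0.47 in BnaC01g38510D.

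**Figure D2:**
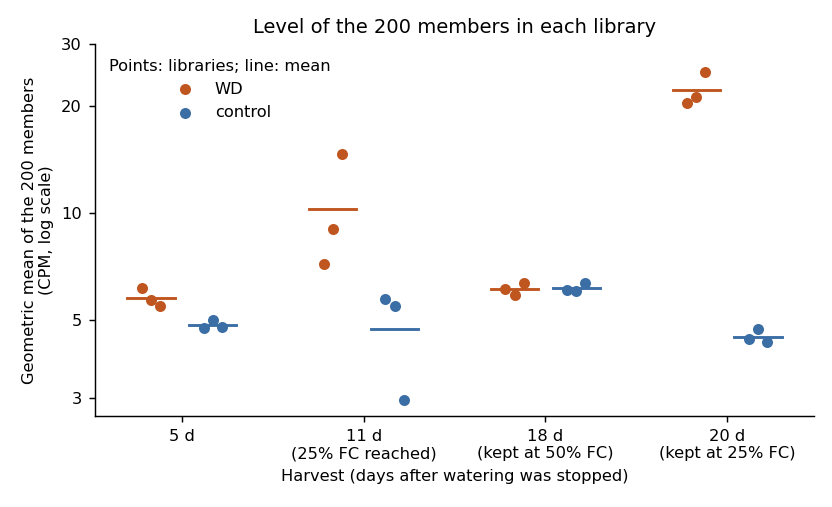
Geometric mean CPM of the 200 members (y axis, log scale) in each of the 24 libraries by harvest (x axis), WD left of control; points are libraries and lines are means of 3. At 18 d the groups overlap near 6 CPM, at 20 d the WD libraries lie between 20.5 and 25.1 and the controls between 4.32 and 4.70, and at 11 d single libraries of both groups stand apart.

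The values of the 11 d harvest, at which the soil had just reached 25% FC, were not used to choose the members. The test took its spread from all libraries fitted, however, including those of the last harvest, which the rule did use. The calls are therefore not fully independent of the choice, and the effect of this on their number was not tested. At 11 d 58 of 200 members rose (29.0%) and 0 fell in edgeR's quasi-likelihood test with Benjamini-Hochberg adjustment over 54274 genes, of which 3.32% rose and 6.71% fell. The log2 fold change was positive in 197 members, with a median of 1.30 against 0.00098 over all genes tested, and 120 members had an unadjusted p of at most 0.05. WD lay above control in all libraries of 11 d in 77 members (38.5%, against 9.93% of the expressed genes) and below in 0 (8.78%). Members were thus also higher in WD leaves that had only just reached this soil water.

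These calls rested on single libraries. The geometric mean of the members at 11 d was 7.19, 9.0022 and 14.7 CPM in WD libraries and 5.71, 5.48 and 2.97 CPM in controls, so that WD replicate 3 was the highest and control replicate 3 the lowest. WD replicate 3 had the highest value of its group in 142 members and control replicate 3 the lowest of its group in 122. Without WD replicate 3 of 11 d 8 members were called (median log2 fold change 0.76, with 0.571% of all genes rising), without control replicate 3 12 (1.06, 0.633%) and without control replicate 2 20 (1.41, 1.53%). By contrast, 80 were called without control replicate 1, with 5.26% of all genes rising, and 72 without WD replicate 1, with 3.63% rising. With the 6 libraries of 11 d fitted alone, 0 members and 0 genes rose, and 67 members had an unadjusted p of at most 0.05. The median over the members was above 0 in each of these fits. Of the 14 members named here as called at 11 d, all but BnaC03g73070D lost the call both without WD replicate 3 and without control replicate 3 of 11 d.

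At 5 d, when watering had been stopped for the shortest time, 1 member rose and 0 fell in edgeR's test, where 0.0221% of all genes tested rose and 0.0111% fell (0.0332% either way). It was BnaC03g73070D, a gene without an annotation here. It had 3.18, 3.13 and 3.76 CPM in WD libraries and 1.14, 0.528 and 1.30 CPM in controls at 5 d, with no overlap and a log2 fold change of 1.73 ± 0.27 (SE, adjusted p = 0.042). The call was lost without the replicate block (adjusted p = 0.125) and when any of the 6 libraries of 5 d was left out (adjusted p between 0.145 and 0.297). It was also lost without WD replicate 1 or control replicate 2 of 11 d, and without any WD library or control replicate 1 or 3 of 20 d, which lend their spread to the fit (adjusted p between 0.0548 and 0.0857). The median log2 fold change over the members was 0.30 at 5 d against -0.0048 over all genes tested and was 0.0872 without WD replicate 1, and 24 members had an unadjusted p of at most 0.05. WD lay above control in all libraries in 38 members (19.0%, against 10.7% of the expressed genes) and below in 10 (5.0%, against 8.74%).

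No member passed edgeR's test of the difference between the response at 11 d and that at 5 d, in which 0.0% of all genes passed. The difference was positive in 177 members with a median of 0.94 on the log2 scale, and 34 had an unadjusted p of at most 0.05. The likelihood ratio test and DESeq2 called 4 members each, and 9 were called without control replicate 1 of 11 d. Genes raised as much at 20 d and also at 18 d had a higher share of calls at 11 d, 273 of 501 tested (54.5%) with a median log2 fold change of 1.80, and 5 at 5 d. Without WD replicate 3 of 11 d 115 of them were called, and without control replicate 3 103. The difference between these genes and the members was not tested.

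**Figure D3:**
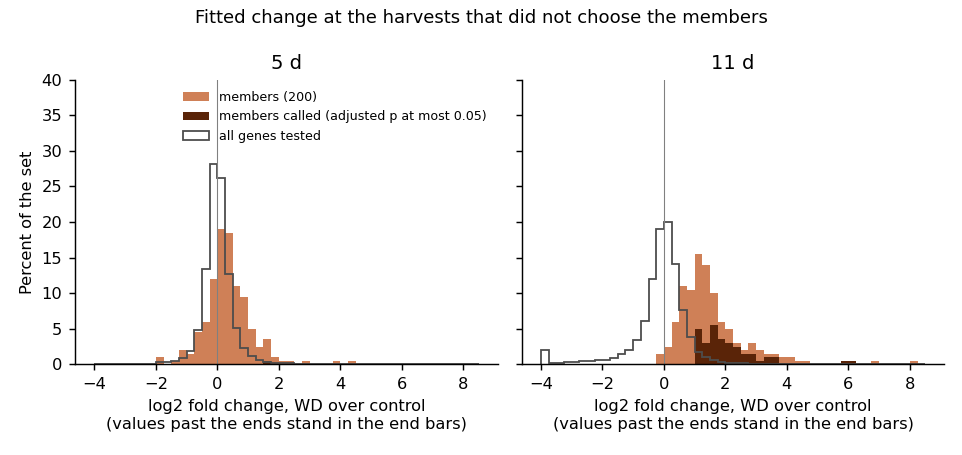
Fitted log2 fold change of WD over control at 5 d and at 11 d (x axis) as percent of the set (y axis) for the 200 members, for the members called at an adjusted p of at most 0.05, and for all 54274 genes tested (outline). At 5 d the members centre at 0.30 with 1 called, and at 11 d at 1.30 with 58 called, while all genes centre near 0 at both harvests.

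Gene functions could be read for few members. The annotation used here is a shortened copy of the study's list of genes called differential in these same libraries, so a member without an entry may have one in the full list, and an entry is not independent of the direction. It describes 26 of the 200 members, of which 6 rose at 11 d, and lists 8 more without a description. In 13 of the 26 the control mean of 18 d was at least 2 times that of 5 d, in 9 at most 0.5 times, and in 4 between. Over the 200 members these numbers were 35, 21 and 144. The genes described by function are thus not typical of the members in this respect. In this copy no member is annotated as a NAC, WRKY or AP2 protein, a LEA protein, a cytochrome P450 or a protein kinase. The members described below by function are these 26 and those named in the study's transporter list.

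From the list of abscisic acid genes, which was made by words of the annotation, 2 members are PP2C genes. The annotation read here does not say whether their products are among the PP2C that the abscisic acid receptors block. BnaA10g04840D had 18.3, 11.2 and 15.5 CPM in WD and 1.19, 1.29 and 0.781 CPM in control libraries at 20 d, against 1.68, 1.07 and 1.31 CPM in WD and 1.07, 1.05 and 2.06 CPM in control libraries at 18 d. At 11 d it had 2.15, 1.08 and 9.43 CPM in WD and 0.295, 0.706 and 0.858 CPM in control libraries, the groups did not overlap, and it rose by a log2 fold change of 2.62 ± 0.69 (adjusted p = 0.030). BnaC05g41830D was more abundant and stood at 298, 271 and 262 CPM in WD and 67.0, 98.1 and 82.3 CPM in control libraries at 20 d. At 11 d it had 108, 52.4 and 145 CPM in WD and 61.9, 31.3 and 17.7 CPM in control libraries, which overlapped, with a log2 fold change of 1.57 ± 0.44 (adjusted p = 0.038). Without WD replicate 3 of 11 d the log2 fold changes were 1.24 (adjusted p = 0.199) and 0.96 (0.179), and without control replicate 3 2.66 (0.150) and 1.18 (0.215). The first call was also lost without control replicate 1 or 2 of 11 d (0.0515 and 0.0623), and the second without control replicate 2 (0.110) or WD replicate 1 (0.0516) of 11 d, WD replicate 3 of 20 d (0.0531) or any library of 5 d but control replicate 1 (between 0.0521 and 0.0544). At 5 d the log2 fold changes were 1.46 ± 1.08 for BnaA10g04840D (adjusted p = 0.85) and 0.84 ± 0.43 for BnaC05g41830D (adjusted p = 0.72).

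BnaA03g47030D encodes an HVA22-related protein, a family of membrane proteins first described in barley as induced by abscisic acid. It had 27.8, 42.6 and 36.6 CPM in WD and 2.25, 2.64 and 1.70 CPM in control libraries at 20 d. At 18 d the values were 5.47, 2.43 and 3.03 CPM in WD and 3.98, 2.30 and 2.55 CPM in control libraries, with overlapping groups. Its E at 18 d was 0.27 with WD replicate 3 of 18 d and 0.37 without it, above the bound of 0.3. At 11 d only WD replicate 3 was raised, with 1.71, 3.13 and 12.7 CPM in WD and 3.39, 1.27 and 2.02 CPM in control libraries, the log2 fold change of 1.43 ± 0.71 did not pass the test (adjusted p = 0.23), and it was -0.04 without that library. Its neighbour by gene number, BnaA03g47040D, which is not annotated here, had 6.18, 12.7 and 5.67 CPM in WD and 0.0964, 0.258 and 0.0710 CPM in control libraries at 20 d.

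The list of abscisic acid genes held 18 annotated genes tested, with a median log2 fold change of 1.45 at 20 d, where 11 rose and 3 fell, and of 0.78 at 11 d, where 4 rose and 5 fell. Over all 1999 annotated genes 248 rose and 838 fell at 11 d. The 3 members were thus part of a list with changes in both directions.

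Transcription factors among the members were a heat stress factor and a homeodomain-leucine zipper gene. BnaA06g21470D, whose product has the DNA-binding domain of the factors that activate chaperone genes, had 36.9, 45.2 and 45.1 CPM in WD and 4.50, 15.3 and 14.2 CPM in control libraries at 20 d. At 11 d it had 20.1, 9.22 and 18.2 CPM in WD and 3.46, 4.45 and 3.92 CPM in control libraries and rose by 2.05 ± 0.45 (adjusted p = 0.014). Without WD replicate 3 or control replicate 3 of 11 d the log2 fold change was 1.88 or 2.02 (adjusted p = 0.0756 and 0.0755). At 5 d it had 2.73, 2.42 and 1.82 CPM in WD and 0.872, 0.452 and 0.450 CPM in control libraries, without overlap, and its log2 fold change of 1.95 ± 0.57 did not pass the test (adjusted p = 0.41), although it passed with the 5 d libraries fitted alone (adjusted p = 0.040). It was higher in WD at 5, 11 and 20 d, whereas at 18 d the values were 20.3, 19.2 and 6.13 CPM in WD and 9.17, 10.3 and 18.4 CPM in control libraries, with WD replicate 3 the lowest of all 6. Its E at 18 d was 0.26 with that library and 0.63 without it. Of 6 annotated heat stress factors, 3 rose and 3 fell at 11 d.

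BnaCnng73330D carries a homeodomain and an associated leucine zipper, a combination found in plants only. It had 127, 155 and 138 CPM in WD and 37.3, 42.5 and 23.3 CPM in control libraries at 20 d. At 11 d it had 38.1, 28.9 and 72.2 CPM in WD and 19.2, 16.8 and 14.2 CPM in control libraries and rose by 1.52 ± 0.39 (adjusted p = 0.026), against 0.84 without WD replicate 3 (0.136), 1.53 without control replicate 2 (0.0737) and 1.4028 without control replicate 3 (0.143). At 18 d WD and control libraries overlapped, at 34.6, 44.5 and 27.8 CPM in WD and 33.0, 28.9 and 47.8 CPM in control libraries. BnaCnng24780D, with a DnaJ domain as in co-chaperones and a Myb-like domain, had 8.61, 11.5 and 8.75 CPM in WD and 2.06, 3.16 and 3.26 CPM in control libraries at 20 d and a log2 fold change of 0.43 ± 0.43 at 11 d (adjusted p = 0.59). Of the 21 annotated bZIP and homeodomain genes tested, 2 rose and 7 fell at 11 d. Of 47 heat shock and chaperone genes 29 rose and 5 fell, and of 28 MYB genes 1 rose and 16 fell.

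**Figure D4:**
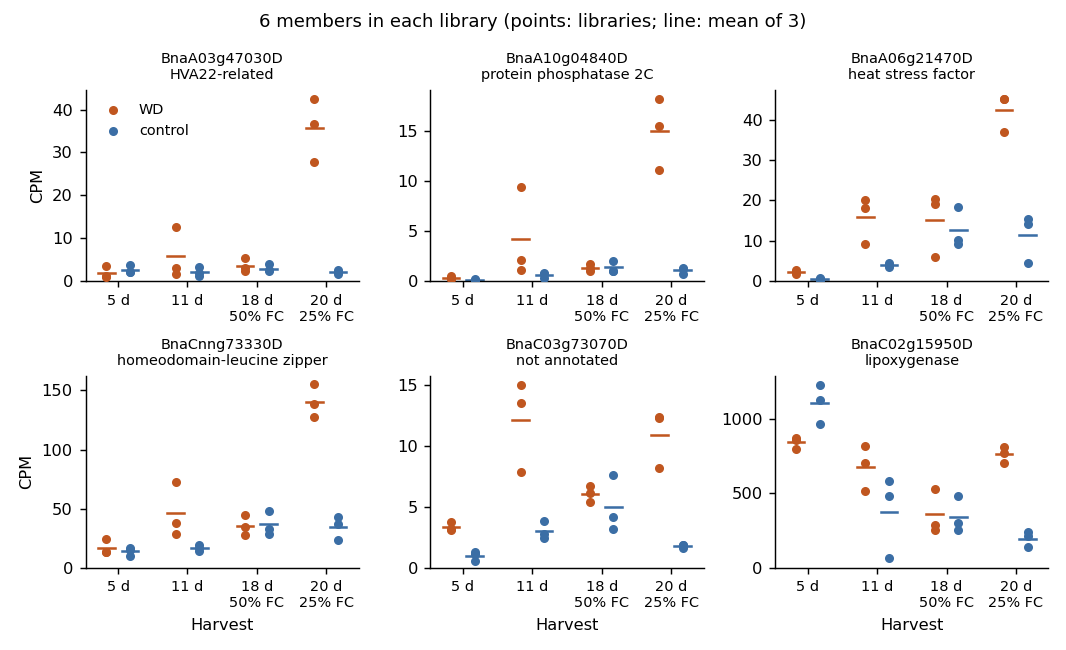
CPM (y axis, from 0) of 6 members in each library by harvest (x axis), WD left of control; points are libraries and lines are means of 3. At 20 d the WD points lie above the control points in each panel, at 18 d the groups overlap in each, and the lipoxygenase BnaC02g15950D had its highest levels in the 5 d controls.

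Of carbohydrate genes, 2 belong to glycosyltransferase family 8, which holds galactinol synthases of the raffinose pathway and also enzymes of pectin and other wall polymers. BnaCnng63310D had 84.0, 105 and 147 CPM in WD and 14.1, 22.4 and 8.52 CPM in control libraries at 20 d, against 2.80, 2.42 and 1.57 CPM in WD and 0.604, 0.226 and 0.764 CPM in control libraries at 5 d. BnaC04g00330D was low, with 4.42, 6.80 and 11.4 CPM in WD and 0.739, 0.129 and 0.426 CPM in control libraries at 20 d. Their log2 fold changes at 11 d, 1.32 ± 0.51 (adjusted p = 0.12) and 1.41 ± 0.61 (adjusted p = 0.17), did not pass the test. Of the 13 annotated sugar and osmolyte genes tested, 0 rose and 3 fell at 11 d, and 5 rose and 4 fell at 20 d. BnaC08g49850D, of the glycoside hydrolase family 28 that cuts pectin, had 12.5, 7.28 and 2.28 CPM in WD and 1.70, 0.258 and 1.85 CPM in control libraries at 20 d, below the 12.9, 12.7 and 15.2 CPM of the 5 d controls. Its E at 18 d was 0.18 with WD replicate 3 of 18 d and -1.19 without it. Of the 28 annotated cell wall genes tested, 3 rose and 10 fell at 11 d, and 6 rose and 15 fell at 20 d.

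Membrane and transport genes were few. The remorin gene BnaC08g28530D, whose product is a plant plasma membrane protein, had 33.1, 41.5 and 40.6 CPM in WD and 7.87, 9.47 and 6.32 CPM in control libraries at 20 d. It rose at 11 d by 1.69 ± 0.40 (adjusted p = 0.020), with 9.86, 10.8 and 31.9 CPM in WD and 5.16, 5.65 and 5.27 CPM in control libraries, and no WD library overlapped the controls. The log2 fold change was 0.86 without WD replicate 3 (adjusted p = 0.0803), 1.70 without control replicate 2 (0.0601) and 1.58 without control replicate 3 (0.117). The potassium transporter BnaA07g38760D, named POT6 in the study's transporter list, had 13.9, 20.6 and 15.9 CPM in WD and 4.66, 3.99 and 6.60 CPM in control libraries at 20 d and a log2 fold change of 0.91 ± 0.37 at 11 d (adjusted p = 0.14). BnaC01g20480D, named MEB1 in that list and in Arabidopsis a protein of endoplasmic reticulum bodies, had 9.94, 11.048 and 17.2 CPM in WD and 1.54, 6.57 and 3.12 CPM in control libraries at 20 d. Of the 80 annotated transporter genes tested, 4 rose and 52 fell at 11 d.

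The 4 annotated members with the highest mean in WD leaves at 20 d were a lipoxygenase, a glycoside hydrolase of family 1 and a pair of lectin genes, and in each the 5 d control mean was higher still. The lipoxygenase BnaC02g15950D, which oxygenates polyunsaturated fatty acids for jasmonate and related compounds, had 813, 771 and 705 CPM in WD and 236, 136 and 212 CPM in control libraries at 20 d, against 858, 799 and 869.8 CPM in WD and 1126, 1229 and 964 CPM in control libraries at 5 d. Of the 6 annotated jasmonate genes tested, 0 rose and 1 fell at 11 d, and 2 rose and 0 fell at 20 d. The glycoside hydrolase family 1 gene BnaC06g05340D, of a family that includes the myrosinases, which split glucosinolates in Brassicaceae, had 421, 159 and 1003 CPM in WD and 59.8, 110.4 and 88.8 CPM in control libraries at 20 d, with WD replicate 2 near the controls. At 11 d it had 477, 2013 and 526 CPM in WD and 560.1, 942 and 21.7 CPM in control libraries, with control replicate 3 far below the others.

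The sugar-binding lectin genes BnaA03g18540D and BnaC03g22030D followed the same course. BnaC03g22030D had 512, 465 and 862 CPM in WD and 125, 157 and 157 CPM in control libraries at 20 d, and 352, 908 and 533 CPM in WD and 468, 560.6 and 51.9 CPM in control libraries at 11 d. BnaA03g18540D had 264, 183 and 514 CPM in WD and 54.0, 84.7 and 74.6 CPM in control libraries at 20 d, and neither passed the test at 11 d (adjusted p = 0.5 and 0.73). The carboxyl methyltransferase BnaA03g31730D, of a family that makes methyl esters such as methyl salicylate and methyl jasmonate, had 106, 182 and 111 CPM in WD and 24.0, 36.3 and 34.3 CPM in control libraries at 20 d. Its log2 fold change at 11 d was -0.15 ± 0.43 (adjusted p = 0.88), 1 of only 3 negative values among the members. The methyltransferase of the TPMT family BnaC04g03180D had 82.4, 104 and 75.6 CPM in WD and 22.4, 32.5 and 14.4 CPM in control libraries at 20 d, and the t-SNARE gene BnaA06g37500D, of the proteins that fuse vesicles with membranes, had 48.5, 37.6 and 105 CPM in WD and 11.3, 31.4 and 9.72 CPM in control libraries.

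The immune receptor gene BnaA01g03580D, with NB-ARC and RPW8 domains, did not share that course. It had 88.3, 115 and 80.7 CPM in WD and 20.1, 17.3 and 24.8 CPM in control libraries at 20 d, and lower values of 15.1, 5.83 and 7.84 CPM in WD and 7.51, 7.01 and 9.17 CPM in control libraries at 5 d. Its log2 fold change at 11 d was 0.34 ± 0.32 (adjusted p = 0.56). Of the 99 annotated defence genes tested, 5 rose and 68 fell at 11 d.

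The other annotated members cover separate functions. BnaC05g18020D is annotated as GIGANTEA, a component of the circadian clock and of flowering time control in Arabidopsis, and had 46.5, 54.5 and 46.5 CPM in WD and 12.5, 16.7 and 12.6 CPM in control libraries at 20 d, with overlapping groups at 18 d (21.9, 23.1 and 22.7 CPM in WD and 27.0, 20.1 and 21.1 CPM in control libraries). Its log2 fold change at 11 d was 0.84 ± 0.30 (adjusted p = 0.094). BnaA09g04520D encodes a BURP-domain protein, the family of the dehydration-responsive RD22 of Arabidopsis, and had 221, 189 and 189.8 CPM in WD and 56.3, 48.8 and 72.6 CPM in control libraries at 20 d and a log2 fold change of 1.16 ± 0.35 at 11 d (adjusted p = 0.053).

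BnaC07g25850D, annotated only as a protein of unknown function (DUF1675), had 33.8, 55.2 and 40.9 CPM in WD and 4.08, 5.99 and 10.6 CPM in control libraries at 20 d and rose at 11 d by 1.77 ± 0.45 (adjusted p = 0.026), against 1.30 without WD replicate 3 (0.134), 2.0015 without control replicate 2 (0.0506) and 1.56 without control replicate 3 (0.148). The tetratricopeptide-like gene BnaA02g20020D had 80.5, 87.2 and 115 CPM in WD and 28.1, 36.3 and 16.8 CPM in control libraries at 20 d. Its log2 fold change of 1.48 ± 0.47 at 11 d missed the threshold (adjusted p = 0.063). The gene of unknown function (DUF3537) BnaC01g13780D, the RNA-binding gene BnaA07g03570D and the alpha/beta hydrolase gene BnaC04g46310D had WD means at 20 d of 50.9, 12.7 and 22.5 CPM and control means of 13.6, 1.87 and 6.35 CPM. None of these last genes passed the test at 11 d (adjusted p between 0.15 and 0.99).

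The members with the highest E at 20 d were genes that were nearly silent in controls. BnaA04g22810D had 19.4, 32.1 and 20.6 CPM in WD libraries at 20 d (1200 counts in all), against 2 counts in the 3 controls, a ratio of 731 (95% exact interval 202 to 6045, counting error only). At 18 d it had 0, 0 and 0.238 CPM in WD libraries and 0 counts in controls, and at 5 d 0 counts in all 6 libraries. At 11 d its 147 WD counts were nearly all in replicate 3 (144), against 0 counts in the controls, which puts the pooled WD level at least 42.8-fold above the floor of 3 counts over the control group. BnaC09g54700D had 3.46, 10.4 and 8.80 CPM in WD libraries and 1 count in the controls at 20 d, a ratio of 479 (95% exact interval 85.5 to 18966, counting error only), and at 11 d 49 WD counts (41 in replicate 3) against 0 in the controls. Neither passed the test at 11 d (adjusted p = 0.13 and 0.093), though both did in the likelihood ratio test (0.0061 and 0.0025).

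BnaCnng02990D and BnaC04g32900D were likewise near 0 in the controls of 20 d, with 3.83, 5.52 and 6.12 CPM in WD libraries against 2 control counts for the first and 3.17, 4.86 and 7.89 CPM against 3 control counts for the second. In all 33 members stayed below 1 CPM in the 12 control libraries, and 6 had 0 counts in the 6 controls of 5 d and 11 d. The choice by E favours genes with low controls and the share over the expressed genes was not computed, so nothing is read from these counts. Among members with more control signal, BnaC01g38510D had 67.3, 93.2 and 88.0 CPM in WD and 3.54, 6.83 and 7.03 CPM in control libraries at 20 d. At 11 d it had 50.6, 43.6 and 84.8 CPM in WD and 22.0, 6.64 and 7.42 CPM in control libraries and rose by 2.27 ± 0.51 (adjusted p = 0.015), with adjusted p between 0.0606 and 0.0949 without WD replicate 3, control replicate 2 or control replicate 3. BnaA04g10620D, the last member by E, rose at 11 d by 1.80 ± 0.43 (adjusted p = 0.021), with 5.29, 5.78 and 10.0 CPM in WD and 2.88, 2.61 and 0.674 CPM in control libraries, against 1.37 without WD replicate 3 (0.0980) and 1.23 without control replicate 3 (0.0664). BnaC03g75280D had 24.5, 21.4 and 16.998 CPM in WD and 1.70, 0.387 and 1.28 CPM in control libraries at 20 d and rose at 11 d by 3.48 ± 0.87 (adjusted p = 0.024), where WD replicate 3 held 8.22 CPM and replicates 1 and 2 held 0.936 and 1.93 CPM, and without WD replicate 3 the log2 fold change was 1.96 (adjusted p = 0.128).

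The remaining genes of highest E were BnaCnng22540D (3.80), BnaC05g37530D (3.47) and BnaC04g09800D (3.40). BnaCnng22540D had 10.0, 12.6 and 18.8 CPM in WD and 0.321, 0.902 and 0.355 CPM in control libraries at 20 d. BnaC04g09800D showed how a flat mean at 18 d can hide spread, with 12.3, 3.14 and 1.19 CPM in WD and 6.89, 5.23 and 8.29 CPM in control libraries, and BnaC05g37530D likewise had 2.88, 1.95 and 0.119 CPM in WD and 1.63, 2.58 and 1.52 CPM in control libraries. None of them passed the test at 11 d (adjusted p = 0.14, 0.93 and 0.11).

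The largest fitted rises at 11 d among the members called belonged to genes of very low level, for which few counts decide the value. BnaC07g03240D had 24 counts in the WD libraries of 11 d (12, 1 and 11) and BnaC02g06000D 23 (3, 1 and 19), against 0 counts in the controls, which puts them at least 6.98-fold and 6.69-fold above the floor of 3 counts over the control group (adjusted p = 0.044 and 0.037). BnaA10g01350D had 44 WD counts and 3 control counts, a ratio of 12.8 (95% exact interval 4.10 to 64.5, counting error only) and an adjusted p of 0.015. BnaC05g01390D had 0.551, 0.120 and 2.93 CPM in WD and 0, 0.0706 and 0.184 CPM in control libraries (adjusted p = 0.039). With 1 library left out in turn, BnaC07g03240D was called in 4 of 18 fits, BnaC05g01390D in 9, BnaC02g06000D in 13 and BnaA10g01350D in 15. A rise that did not rest on a single library was that of BnaC03g73070D, the gene called at 5 d, with 15.0, 7.83 and 13.5 CPM in WD and 2.80, 2.47 and 3.80 CPM in control libraries at 11 d. Its log2 fold change of 1.9958 ± 0.24 (adjusted p = 0.001) passed the test with each of the 18 libraries left out, and not with the 11 d libraries fitted alone (adjusted p = 0.155).

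Levels spanned several orders of magnitude. The mean in WD leaves at 20 d was at least 100 CPM in 41 members, between 10 and 100 CPM in 87 and below 10 CPM in 72. The most abundant were BnaA06g01430D, with 1146, 992 and 1682 CPM in WD and 262, 350.3 and 220.5 CPM in control libraries, BnaC07g41630D, with 1239, 918 and 1583 CPM in WD and 405, 201 and 224 CPM in control libraries, and BnaC06g34210D, with 879.7, 904 and 1457 CPM in WD and 209, 149 and 131 CPM in control libraries, none of them annotated here. None was called at 11 d (adjusted p = 0.29, 0.4 and 0.085). At 5 d BnaA06g01430D already had 634, 871 and 876 CPM in WD and 874, 1157 and 911 CPM in control libraries, so that its E at 20 d came with a low level in the 20 d controls.

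The members differed in how the well-watered controls changed between 5 d and 18 d, and classes were formed from these controls after the values had been seen. In 21 members (10.5%, against 2.41% of the expressed genes) the control mean of 18 d was at most 0.5 times that of 5 d, in 35 (17.5%, against 13.4%) at least 2 times, and in 144 it lay between, each mean with 0.5 CPM added. The first class had geometric means of 66.4, 56.9 and 74.4 CPM in WD and 14.7, 16.8 and 15.4 CPM in control libraries at 20 d, and of 50.6, 62.1 and 60.1 CPM in WD and 64.0, 87.3 and 71.9 CPM in control libraries at 5 d. In 12 of the 21 members the mean of WD leaves at 20 d was below that of the 5 d controls. The rule used the 18 d and 20 d values and the class the control values of 5 d and 18 d, so these levels are a description. At 11 d 0 members of this class were called, where 3.32% of all genes rose, with a median log2 fold change of 0.81, and the geometric mean was 35.8, 70.8 and 57.9 CPM in WD and 44.0, 42.8 and 7.42 CPM in control libraries, with control replicate 3 the lowest. Without WD replicate 1 of 11 d 3 were called (3.63% of all genes rose) and without control replicate 1 5 (5.26%). The median was 0.18 without control replicate 3. The lipoxygenase, glycoside hydrolase family 1 and family 28, lectin, methyltransferase, t-SNARE, DnaJ and MEB1 genes named above belonged to it.

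In the class with higher 18 d controls, 13 of 35 members rose at 11 d, where 3.32% of all genes rose, with a median log2 fold change of 1.33. Without WD replicate 3 or control replicate 3 of 11 d 2 were called, and without control replicate 2 4. The geometric mean was 31.3, 33.9 and 34.8 CPM in WD and 5.43, 7.19 and 6.19 CPM in control libraries at 20 d, and 10.8, 8.74 and 4.75 CPM in WD and 7.88, 7.37 and 9.40 CPM in control libraries at 18 d, with WD replicate 3 of 18 d the lowest. Both PP2C genes, the heat stress factor, the homeodomain-leucine zipper, remorin, DUF1675, potassium transporter and immune receptor genes and BnaCnng63310D were among this class. In the class between, 45 of 144 members rose at 11 d with a median of 1.39, and 6 were called without WD replicate 3, 10 without control replicate 3 and 16 without control replicate 2 of 11 d. Over the 200 members the highest group mean was that of WD at 20 d in 174, of WD at 11 d in 10, of WD at 5 d in 6 and of control at 5 d in 10.

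**Figure D5:**
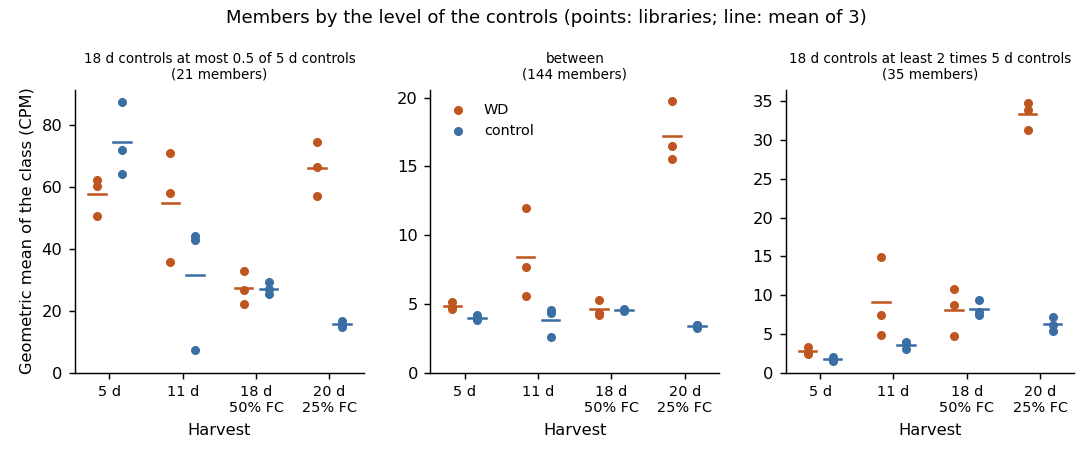
Geometric mean CPM (y axis, from 0, scale differs by panel) of the members in each library by harvest (x axis), WD left of control, for 21, 144 and 35 members classed by their 18 d over 5 d control level; points are libraries and lines are means of 3. In the left panel WD libraries of 20 d lie at 56.9 to 74.4 CPM, near the 5 d level, and in the right panel WD libraries of 20 d lie at 31.3 to 34.8 CPM, above each library of the other groups.

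Within WD leaves, levels at 20 d exceeded those at 11 d in 183 members, with a median log2 ratio of 0.93, and at least 2-fold in 89. All 3 libraries of 20 d lay above all 3 of 11 d in 117 members, and below in 0. The rule used the WD values of 20 d, and the shares over the expressed genes were not computed, so nothing is read from these counts. Replicates of the members spread more than those of the expressed genes in every group of WD or control leaves. The median SD on the log2 scale was 0.68 against 0.29 in WD leaves of 11 d and 0.48 against 0.33 in their controls. In WD leaves of 20 d it was 0.30 against 0.26, but the rule had required each of these libraries to lie above each control.

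The members were spread over both subgenomes, with 94 on A (47.0%, against 48.4% of the expressed genes) and 106 on C (53.0%, against 51.4%). Some had close gene numbers, 1 or 2 steps apart in the pairs named here. BnaA05g28050D and BnaA05g28060D had a Pearson r of 0.91 over log2 values of the 24 libraries, BnaA07g24860D and BnaA07g24880D of 0.91, BnaA03g47030D and BnaA03g47040D of 0.90, and BnaC06g33390D and BnaC06g33400D of 0.63, as a description, since the libraries share treatments and harvests. Reads of close copies cannot always be told apart in this polyploid genome, and pairs placed at several loci (7.77 to 9.45% per library) were counted on no gene. On the opposite strand, BnaA02g28730D, second in rank by E (4.01), had 29.6% of its counts, and on the annotated strand it had 19.6, 18.5 and 16.4 CPM in WD and 0.900, 0.644 and 0.426 CPM in control libraries at 20 d.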

How the data were processed

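Polyadenylated RNA of leaf blades was sequenced as stranded paired-end libraries. The deposited files hold raw counts of read pairs per gene that the authors made with STAR on the Brassica napus annotation, for both strands together and for each strand. The counts of the annotated strand were used here, without the rows of unmapped, multimapped, ambiguous and unassigned pairs. CPM values and E were computed with Python 3.11.15. The members and the gene lists were chosen with earlier results of these data known.

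Tests used edgeR 4.0.16 (quasi-likelihood, TMM, with a block for the replicate number, which the study's model also had) on the 18 libraries of 5, 11 and 20 d, with genes of at least 0.6 CPM in at least 3 libraries and Benjamini-Hochberg adjustment over all 54274 genes. The threshold was an adjusted p of 0.05. The 18 d libraries entered E only, except in an alternative fit. Scripts were tested on simulated data. Alternatives were DESeq2 1.42.0, the likelihood ratio test, other scaling, filters and strands, no block, each harvest alone, and each library left out. Genes were named by rank of E (12), of level (3), of change among called members (4 per direction and harvest), by list (3 per list) and at the bounds of the rule, and the other annotated members, BnaC01g20480D and the neighbouring pairs were chosen after their values were seen. Nothing in the sources used here says that replicates of different groups were grown together beyond their number, and p-values measure the spread between libraries of 2 pooled plants each. Gene functions came from the study's annotation of its differential genes, of which 1999 entries were read. Intervals cover counting error only.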

Additional observations from a re-analysis of the deposited data

Results flagged for a closer look

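Counts on the strand opposite to the annotated gene, which no comparison above uses, stood out in WD leaves at 20 d in 5 members. These were picked for at least 1 CPM on this strand in WD at 20 d, each WD library above each control and at least 5% of the counts, bounds set after the values were seen, so their direction is that of the choice. Of the 8 members with at least 100 counts and 5% of the counts on this strand over all 24 libraries, WD lay above control at 20 d in these 5, overlapped it in BnaC05g06630D (means of 1.88 CPM in WD and 1.96 CPM in control leaves) and BnaCnng24780D, and lay below it in BnaC08g21630D (0.333 CPM in WD and 0.796 CPM in control leaves). BnaA02g28730D had a mean of 15.4 CPM on that strand in WD and 0.0107 CPM in control leaves. Its WD libraries of 20 d had 16.8, 11.4 and 17.9 CPM and its controls 0.0321, 0 and 0 CPM, and at 11 d WD replicate 3 stood apart with 22.2 CPM against 1.65 and 1.14 CPM in the other WD libraries. The means in WD and control leaves at 20 d were 4.77 and 1.88 CPM for BnaC01g12260D, 3.16 and 1.27 CPM for BnaC07g07130D, 1.58 and 0.142 CPM for BnaA04g10620D, and 1.11 and 0.520 CPM for BnaC04g09800D. Single libraries were not tested for standing apart, since groups of 3 are too small for that.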

How the results depend on the processing

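At 11 d the number of members called was 0 with each harvest fitted alone and between 8 and 80 with 1 library left out, and between 55 and 85 under the other settings. Of all genes, 0.571% and 5.26% rose in the fits with 8 and 80, and 3.3% and 4.68% in those with 55 and 85. The median log2 fold change lay between 0.762 and 1.6141 with 1 library left out, and was 1.27 with members of no control count at their bound. The number of members called at 5 d was 0 without the replicate block, 8 with the harvest alone (6 rose and 2 fell, with 270 and 284 over all genes), 2 with the likelihood ratio test and 2 with DESeq2, and 0 to 1 with 1 library left out, and the median lay between 0.0872 and 0.4213. The difference between 11 d and 5 d was called in 4 members with the likelihood ratio test (0.203% of all genes in that direction) and 4 with DESeq2 (0.227%). With 1 library left out it was called in 0 to 9 members (0.74% of all genes in the fit with 9). It was not run with each harvest alone, which holds no second harvest. The rule chose 126 of the 200 members again with TMM-normalized CPM and 117 to 186 with 1 library left out, and between 138 and 193 under the other settings. Without WD replicate 3 of 18 d 121 members kept an E within the bounds, an alternative chosen after seeing the data. At 20 d 170 to 198 members were called with 1 library left out.

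WD lay above control in all libraries in 78 to 122 members at 11 d and 44 to 57 at 5 d with 1 library left out, which leaves fewer libraries to separate. Same-numbered WD and control libraries deviated together to an uneven degree. The correlation was positive in each pair at 5, 11 and 20 d (r between 0.0061 and 0.465), and r lay between -0.026 and 0.059 at 18 d. For WD replicate 1 of 11 d and WD replicate 3 of 5 d and of 20 d, the best match was control replicate 2. The numbers were thus not shown to pair the samples in each harvest. Without the replicate block 68 members were called at 11 d, 56 of them shared, and 195 at 20 d. The sign at 11 d turned for BnaC05g37530D (-0.18) with the harvest alone. The log2 fold change of BnaC04g46310D at 11 d turned to -0.0803 with the harvest alone, -0.0373 without the replicate block and -0.0536 with all 24 libraries. With 1 library left out the log2 fold change ranged from -0.0386 to 2.14 for BnaA03g47030D, from -2.03 to 0.71 for BnaC05g37530D, from -0.0140 to 1.08 for BnaCnng24780D, from -0.17 to 1.26 for BnaA03g18540D, from -0.56 to 0.64 for BnaA03g31730D, from -0.0005 to 1.37 for BnaC04g03180D, from -0.10 to 1.11 for BnaC01g13780D and from -0.45 to 0.38 for BnaC04g46310D. The cause was not tested.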
